A study of Homo sapiens with 8 samples.

Results

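The cytosolic ribosomal proteins are the proteins of the large (RPL) and small (RPS) subunits of the ribosome that translates nuclear mRNAs. Their genes were picked out by a rule on names that takes no measured value, although the group itself was chosen with earlier results of these data known. The single gene symbol of a probe set had to start with RPL or RPS and a digit, or be RPSA, RPLP0, RPLP1 or RPLP2, and the ribosomal S6 kinases and pseudogenes were left out. At 12 h, 51 of 7713 genes with a single-symbol probe set met the rule, and at 6 h 58 of 11963 did. All 51 were among the 58. Where a gene had several probe sets, the brightest was used. One member, RPS4Y1, is counted here but its values are not described, which leaves 50 members at 12 h and 57 at 6 h.

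MRC5, an established line of human diploid lung fibroblasts, received either 10 µM of 8-oxoguanine, an oxidised form of the base guanine given here as the free base, or its solvent alone (mock). Total RNA was hybridised to Affymetrix arrays. At 6 h there was 1 treated and 1 mock array. At 12 h there were 3 treated and 3 mock arrays, which the labels name technical replicates by extract. The treatment text in the labels gives 6 h for every sample, whereas the time labels give 12 h for these 6 arrays, and the time labels were followed. All groups share the same cell line and medium, and the labels do not say whether the extracts stem from separate cultures. The p-values below therefore describe the spread between extracts only, which may be technical. The question was how these cells' transcripts respond to the base at each time.

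Each ribosome carries a single copy of most of these proteins, and cells keep their synthesis in balance. Ribosomal protein mRNAs are among the most abundant in growing cells. Most begin at the cap with a cytidine and an unbroken run of pyrimidines, the terminal oligopyrimidine (TOP) tract, through which mTOR and the binding protein LARP1 regulate their translation. The same tract heads the mRNAs of elongation factors and of several initiation factor subunits. Genes of this class therefore often change translation without a change in mRNA level, and the arrays measured only mRNA.

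The tract could be seen in the reference sequence around the annotated start sites of the genes the results turn on. RefSeq promoter windows of GRCh38.p14 were found for 49 of 57 members. In the 60 bases printed for each gene, 5′ to 3′, the annotated first transcribed base is base 41, and capitals mark the unbroken run of C and T that holds it. The first 5 genes shown rose at 12 h, RPS27L is the paralogue of RPS27, and RPL37A and RPL41 had 12 h differences near 0. The windows lie at chr3:40457299-40457358, plus strand, for RPL14, at chr2:101002249-101002308, plus strand, for RPL31, at chr19:54200818-54200877, plus strand, for RPS9, and at chr11:119018324-119018383, minus strand, for RPS25. Those of the others lie at chr1:153990722-153990781, plus strand, for RPS27, at chr15:63157458-63157517, minus strand, for RPS27L, at chr2:216498804-216498863, plus strand, for RPL37A, and at chr12:56116593-56116652, plus strand, for RPL41.
RPL14: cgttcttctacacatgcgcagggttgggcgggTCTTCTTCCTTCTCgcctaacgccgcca
RPL31: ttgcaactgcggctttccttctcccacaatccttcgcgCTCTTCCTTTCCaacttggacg
RPS9: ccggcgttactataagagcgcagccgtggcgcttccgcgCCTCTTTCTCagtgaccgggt
RPS25: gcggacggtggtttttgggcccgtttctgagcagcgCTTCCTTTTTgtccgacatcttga
RPS27: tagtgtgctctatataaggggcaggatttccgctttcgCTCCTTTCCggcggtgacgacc
RPS27L: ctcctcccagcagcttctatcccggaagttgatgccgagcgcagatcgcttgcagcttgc
RPL37A: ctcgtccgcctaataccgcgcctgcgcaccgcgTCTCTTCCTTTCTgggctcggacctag
RPL41: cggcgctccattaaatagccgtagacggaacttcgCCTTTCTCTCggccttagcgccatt

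The runs around the start were 14 bases long in RPL14, 12 in RPL31, 10 in RPS9, RPS25 and RPL41, 9 in RPS27 and 13 in RPL37A, and RPS27L had none, since its annotated first base is a purine. A start at C followed by at least 4 further pyrimidines was found in 33 of 49 members (67.3%) and in 5.14% of the 27305 genes with a window. All 33 were canonical subunit proteins, of which 45 had a window. None of the 4 paralogues with a window (RPL10L, RPL26L1, RPL36AL and RPS27L) met this rule. Among canonical members, RPL3, RPL6, RPL9, RPL10A, RPL19, RPL27, RPL32, RPS4X, RPS7, RPS15, RPS28 and RPS29 did not meet it. The rule reads only the annotated first base and the next 4, so it cannot show that a gene lacks the tract. Within 20 bases of the start, the longest pyrimidine run was 12 in RPL19, 11 in RPS7 and 10 in RPL10A. It was 5 in RPL3, RPL6 and RPS4X, and the median over all genes was 5. Among the 4 paralogues the longest run was 15 in RPL36AL, 6 in RPL26L1, 4 in RPL10L and 3 in RPS27L. Of the members that rose at 12 h, 7 of 8 with a window had the tract, and of those tested that did not, 23 of 36 did. The 36 include RPL26L1, RPL36AL and RPS27L, paralogues that did not meet the rule, and no paralogue rose. RPL10A, which did not meet the rule at its annotated start, was the exception among those that rose. In the whole 300-base windows, on either strand, CCGGAAG, the core of ETS family sites, was found in 36.7% of members and 12.2% of all genes. TATAA was found in 20.4% and 24.2%, and GGGCGG in 59.2% and 48.3%. These are matches of letters in a window and do not show that a factor binds there.

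At 12 h, 9 of 49 tested ribosomal protein genes rose and 0 fell in treated cells. The 9 were RPL10A, RPL14, RPL31, RPL34, RPL36 and RPL37 of the large subunit and RPS9, RPS25 and RPS27 of the small one. The changes were small, between 0.31 and 0.72 on the log2 scale, and all 49 values lay above 0 in the deposited signals (47 after median centring and 42 after quantile normalization), as did 51.4% of all probe sets tested, with a median of 0.17 against 0.0072 over all probe sets tested. After quantile normalization the members' median was 0.085. In the same test 6.59% of the 5248 probe sets rose and 6.65% fell, and 21 of the 49 members had an unadjusted p under 0.05. All 3 treated arrays lay above all 3 mock arrays for 24 members and below them for 0, against 17.4% and 16.5% of all probe sets. The threshold throughout is an adjusted p of 0.05 by limma with Benjamini-Hochberg adjustment over all 5248 probe sets.

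Among large subunit proteins, RPL31, which sits beside the exit of the peptide tunnel, read 1006, 1199.8 and 1072 on the treated and 603, 852 and 559 on the mock arrays, in the deposited MAS5 signal units used throughout. The treated arrays were all above the mock arrays, and mock replicate 2 was the highest of its group. The log2 fold change was 0.72 (SE 0.15, n = 3 and 3, adjusted p = 0.0118 by limma). RPL31 also had a dimmer probe set on this array, whose change was 0.23 with an adjusted p of 0.186 by limma, so the 2 did not give the same call. At 6 h the probe set called here read 430 in mock cells, against 8166 from the brightest RPL31 probe set. That brightest one was not among the single-symbol probe sets at 12 h.

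RPL14, a protein of the ribosome's outer face, read 6827, 6799.5 and 6689 in treated and 5139, 5389.8 and 5402 in mock cells. RPL36, another surface protein of the large subunit, read 4546, 4557 and 5012 in treated and 3513, 3754 and 3363 in mock cells. In both genes the groups were separated without overlap. The log2 fold change of RPL14 was 0.35 (SE 0.062, n = 3 and 3, adjusted p = 0.00606 by limma), and that of RPL36 was 0.41 (SE 0.073, n = 3 and 3, adjusted p = 0.00627 by limma). These 2 genes kept their call in all 15 alternative analyses that were run.

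RPL10A forms the mobile stalk over the exit site for tRNA. Its signal was 6569, 6324 and 7608 in treated and 5192, 5961 and 5227 in mock cells, with mock replicate 2 closest to the treated arrays, and its log2 fold change was 0.32 (SE 0.09, n = 3 and 3, adjusted p = 0.0438 by limma). RPL34, a component of the large subunit's body, gave 9309, 8743 and 8187 in treated and 7201, 6283 and 7663 in mock cells. RPL37, a zinc-binding protein, gave 8833, 8693 and 7793 in treated and 7124, 6377 and 6952 in mock cells. Neither overlapped between groups, and on both genes treated replicate 3 and mock replicate 2 were the lowest of their groups. The changes were 0.31 (SE 0.089, n = 3 and 3, adjusted p = 0.0447 by limma) for RPL34 and 0.31 (SE 0.077, n = 3 and 3, adjusted p = 0.0282 by limma) for RPL37.

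On the small subunit, RPS9, which lines the mRNA entry channel and bears on decoding accuracy, read 6335, 6578 and 7364 in treated and 5389, 4809 and 5609 in mock cells. Its log2 fold change was 0.36 (SE 0.085, n = 3 and 3, adjusted p = 0.0219 by limma), and treated replicate 3 was the highest array. RPS27, a zinc-finger protein, read 9965, 9545 and 10582 in treated and 7968, 7762 and 8109 in mock cells, with a rise of 0.33 (SE 0.068, n = 3 and 3, adjusted p = 0.0115 by limma). Its mock arrays lay within a narrow band well below the treated ones. RPS25, which many viral internal ribosome entry sites need, read 4013, 4161 and 3330.5 in treated and 3321, 2426 and 2859 in mock cells. Treated replicate 3 was lower than the other treated arrays and was nearly at the level of mock replicate 1. The change of RPS25 was 0.42 (SE 0.12, n = 3 and 3, adjusted p = 0.0478 by limma).

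**Figure D1:**
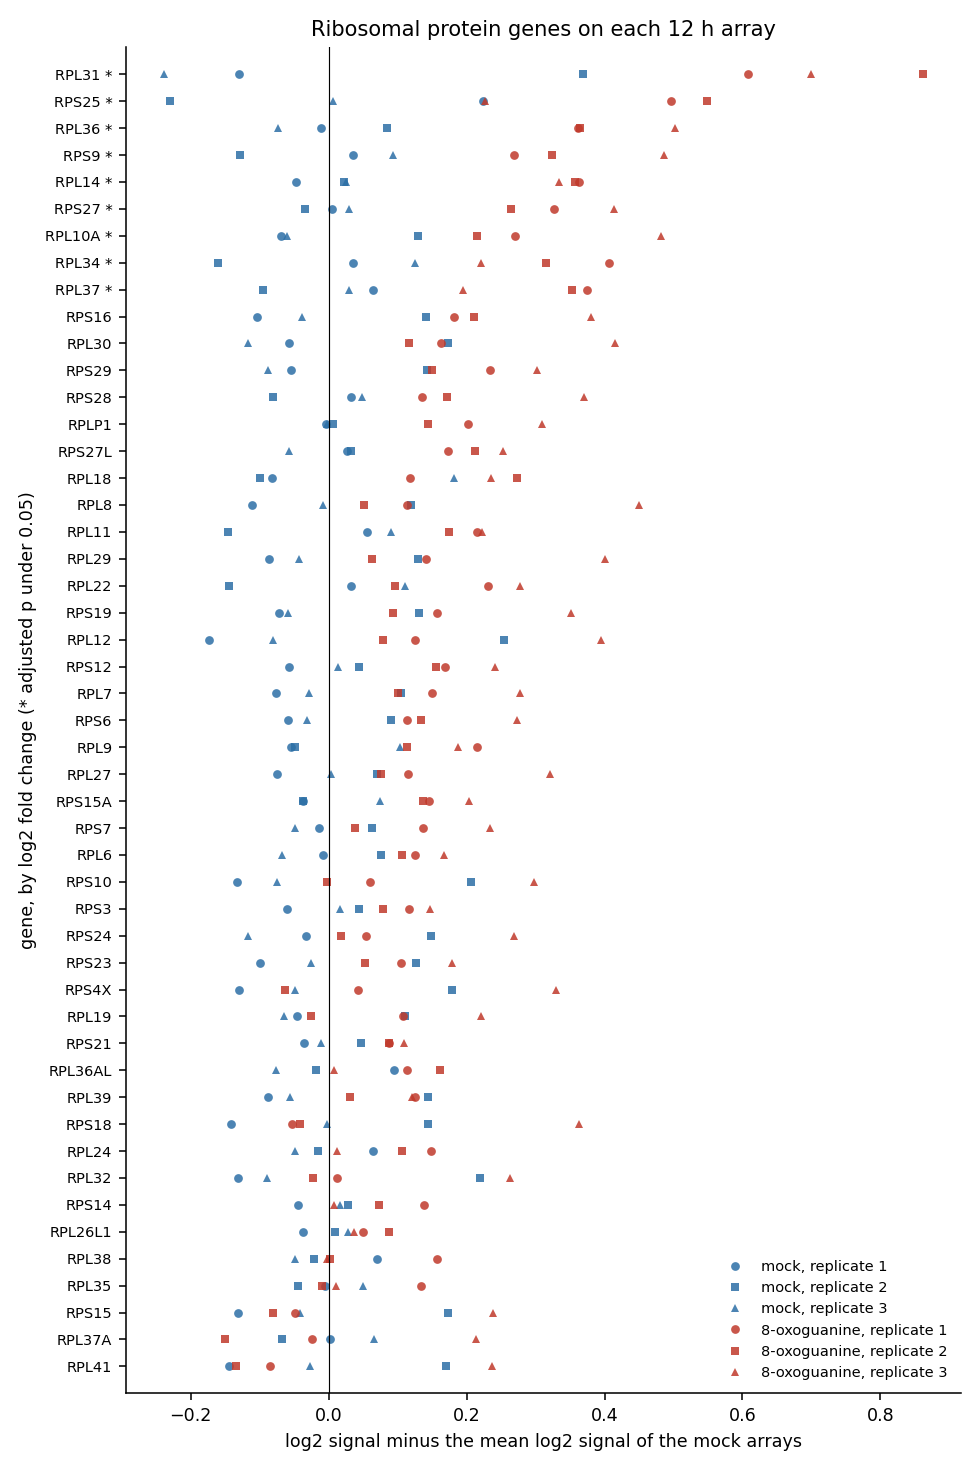
Each row is 1 of the 49 tested ribosomal protein genes at 12 h and each point 1 array, as log2 signal minus the mean log2 signal of the 3 mock arrays (blue, mock; red, 8-oxoguanine; marker shape gives the replicate; * marks an adjusted p under 0.05). The 9 called genes stand at the top with no overlap between colours, and in the lower rows treated replicate 3 and mock replicate 2 are often the rightmost points of their groups.

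The other members are given by subunit. Of 26 canonical large subunit genes tested, 6 rose, 11 did not overlap between groups, and the median log2 fold change was 0.20. Of 20 canonical small subunit genes, 3 rose, 11 did not overlap, and the median was 0.15. Over all probe sets tested, 6.59% rose and 17.4% did not overlap in the higher direction. RPLP1, an acidic stalk protein that recruits elongation factors, read 12896, 12384 and 13885 in treated and 11171, 11256 and 11188 in mock cells. Those groups did not overlap, and its value of 0.22 (SE 0.07, n = 3 and 3, adjusted p = 0.0656 by limma) missed the threshold. RPL11, which with RPL5 and ribosomal RNA can bind the p53 ligase MDM2, had a value of 0.20 (adjusted p = 0.116 by limma). RPS6, the phosphorylation target of the S6 kinases, had 0.17 (adjusted p = 0.165), and RPS3, an entry-channel protein also reported to bind oxidised DNA, had 0.11 (adjusted p = 0.301). After quantile normalization their values were 0.073 and 0.018.

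The smallest differences were those of RPL41 and RPL37A. RPL41, a very short basic peptide, read 16549.7, 15986 and 20686 in treated and 15882, 19744 and 17229.9 in mock cells. RPL37A, a zinc-binding protein, read 19339, 17706 and 22793 in treated and 19678, 18766 and 20571 in mock cells. In both the groups overlapped, and the log2 fold changes were 0.0062 (SE 0.11) and 0.013 (SE 0.10). RPS15 (0.036), RPL35 (0.045) and RPL38 (0.052) followed, with adjusted p-values by limma between 0.73 and 0.873. The direction of RPL41, RPL37A, RPS15 and RPL35 turned under quantile normalization, that of RPL41 and RPL37A also under median centring, and that of RPL41, RPL37A, RPS15 and RPL38 when certain single arrays were left out.

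Several members are paralogues that replace or resemble a canonical protein in certain tissues or conditions. RPS27L, a p53-inducible relative of RPS27, read 5002, 5143 and 5288 in treated and 4519, 4539 and 4264 in mock cells. Its groups did not overlap, and its value of 0.21 (SE 0.064, n = 3 and 3, adjusted p = 0.0563 by limma) did not pass the threshold. It passed with quantile normalization (adjusted p = 0.0443 by limma) and with the stricter filter (0.0422). RPS27 did not pass without the intensity trend (0.0515) or without treated replicate 1 (0.0557), and the difference between these 2 genes was not tested. RPL26L1 had 0.058 (adjusted p = 0.668 by limma) and RPL36AL 0.095 (adjusted p = 0.453). RPL3L, the muscle form of RPL3, was below the filter on dim probe sets, with a signal of at most 121 on any array. RPL3 itself, RPL22L1, RPL36A, RPL10, RPL26, RPL5, RPL13A, RPLP0 and RPSA were not read by a single-symbol probe set at 12 h.

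How firmly a member could be called moved with its signal. Of 20 members with a mean signal from 4000 to 10000, 7 rose and 14 did not overlap, and their median log2 fold change was 0.21. The 198 other probe sets in that range had a median of 0.0070, with 23 higher and 14 lower calls, and 25.3% did not overlap in the higher direction. Of 24 members at or above 10000, 0 rose by limma, 5 had an unadjusted p under 0.05, 7 did not overlap, and the median was 0.12. The 44 other probe sets that bright had a median of 0.047, with 2 higher calls and 20.5% not overlapping in the higher direction. Members with a mean signal below 4000 numbered 5, and RPL31 and RPS25 were the 2 called. Across the 49 members Spearman's rho between the change and the mean signal was -0.41. These genes share arrays and scaling, and rho is given as a description.

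**Figure D2:**
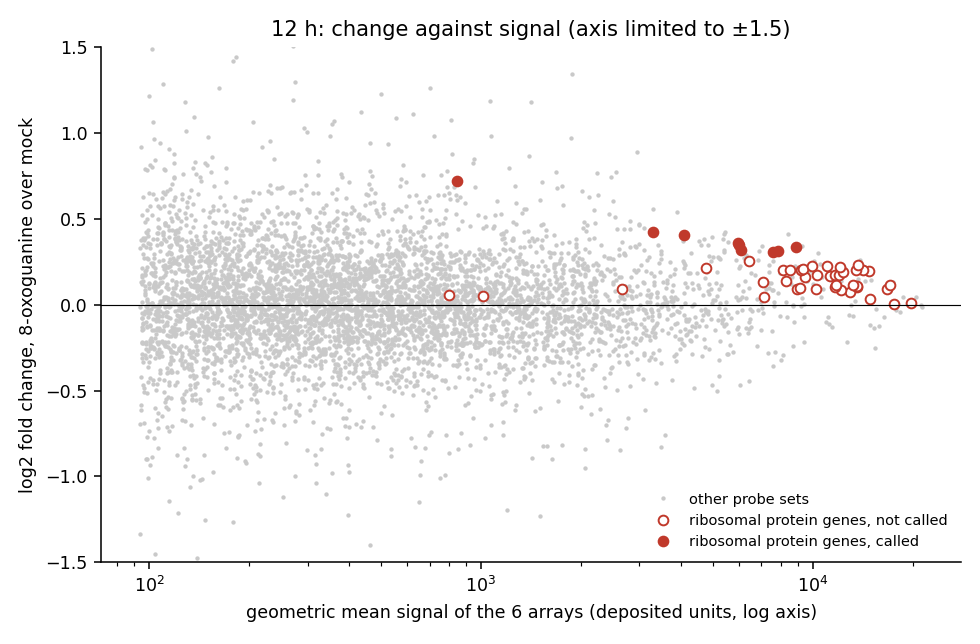
The 12 h log2 fold change (8-oxoguanine over mock, 3 arrays each) is plotted against the geometric mean signal of the 6 arrays on a log axis, for 49 ribosomal protein genes (red; filled where the adjusted p is under 0.05) over all other tested probe sets (grey; some lie beyond the plotted range). The members lie above 0 in these deposited signals (42 of 49 do after quantile normalization) and mostly at the bright end, and 0 of the 24 at or above 10000 are filled.

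A pair of arrays stood apart among bright genes. In 28 of 49 members treated replicate 3 and mock replicate 2 were each the highest of their group, as in 20.8% of all probe sets tested. At or above 10000 this held for 19 of 24 members and for 37 of 44 other probe sets. The members' median log2 deviation from the mean of the 6 arrays was 0.062, 0.035 and 0.19 on treated replicates 1, 2 and 3, and -0.14, -0.014 and -0.11 on the mock replicates in the same order. Of the mock arrays, replicate 2 was thus closest to the treated ones. Without both arrays, an alternative chosen after the data were seen, 19 of 49 members rose and 0 fell, with a median of 0.14, and 7.93% of all probe sets rose, against 6.59% with all arrays. The genes gained were RPL7, RPL12, RPL30, RPLP1, RPS6, RPS12, RPS16, RPS19, RPS27L and RPS29. What set these arrays apart was not tested.

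The number of calls moved with single arrays and with the treatment of the variance, among all probe sets too. Without treated replicate 1 there were 4 calls (RPL14, RPL31, RPL36 and RPS9), and without treated replicate 2 there were 3 (RPL14, RPL36 and RPS27). In these fits 3.49% and 3.56% of all probe sets rose. Leaving out treated replicate 3 gave 7, and leaving out mock replicate 1, 2 or 3 gave 6, 8 and 6. The shares of all probe sets that rose were 5.49% without treated replicate 3 and 5.2%, 6.21% and 4.44% without mock replicates 1, 2 and 3. RPL31 lost its call without treated replicate 2 (log2 fold change 0.65, adjusted p = 0.0514 by limma). Without the intensity trend in the variance, 3 remained past the threshold, namely RPL14, RPL31 and RPL36, with 4.73% of all probe sets higher. With no filter on dim probe sets 5 did, with 3.12%. In the other fits 9 members rose after quantile normalization (6.84% of all probe sets), 7 after median centring (5.79%), 10 with the stricter filter (10.4%), 9 with a constant added (6.67%), 9 with the mean of probe sets (6.86%) and 5 with the replicate block (4.78%). RPS25, RPL10A, RPL34 and RPL37, the calls closest to the threshold, passed in 7, 7, 6 and 6 of the 15 alternatives.

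**Figure D3:**
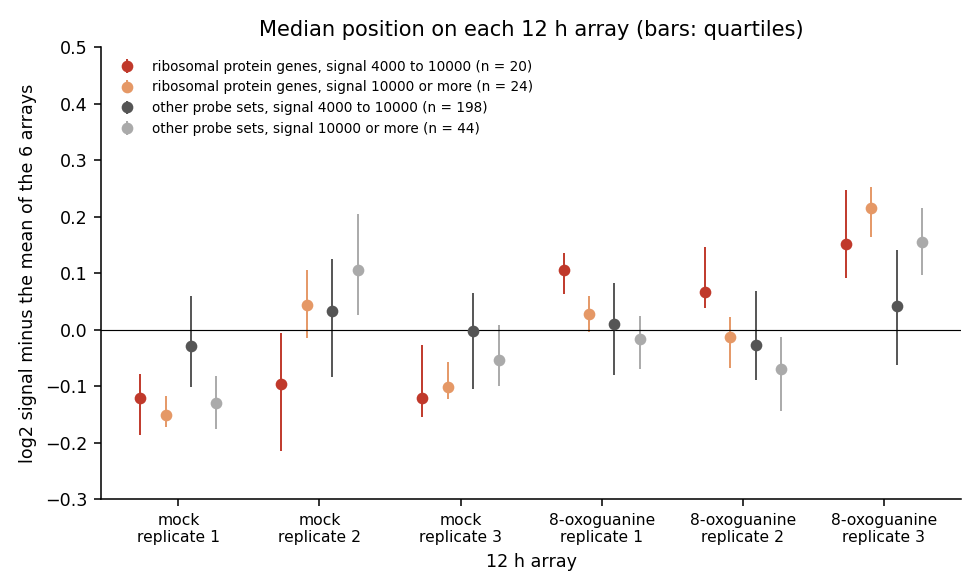
For each 12 h array, points give the median of log2 signal minus the mean of the 6 arrays and bars the quartiles, for ribosomal protein genes and other probe sets in 2 ranges of mean signal. Members from 4000 to 10000 have medians below 0 on all mock and above 0 on all treated arrays, whereas at or above 10000 members and other probe sets alike are high on mock replicate 2 and treated replicate 3.

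Other genes of the translation machinery were read from lists chosen for their roles. Over all probe sets in the same test, 6.59% rose and 6.65% fell. Of 15 tested elongation factors and other genes with TOP-type mRNAs, 7 rose and 0 fell, with a median log2 fold change of 0.23. The 3 largest were NAP1L1, a histone chaperone (0.55, adjusted p = 0.0108 by limma), and the initiation factor subunits EIF3F (0.39, adjusted p = 0.00401) and EIF3E (0.38, adjusted p = 0.00492). The NAP1L1 means were only 400 in mock and 583 in treated cells, whereas at 6 h it read 5381 in mock cells. EEF1A1, which brings aminoacyl-tRNA to the ribosome, had 0.047 (adjusted p = 0.824), and EEF2, the translocase, 0.19 (adjusted p = 0.258). Of the genes in this list with a promoter window, 13 of 15 had the same tract at their start. Of 21 ribosome biogenesis genes tested, 1 rose (DDX21, a nucleolar helicase, 0.25, adjusted p = 0.0277) and 0 fell, with a median of -0.015, and 6 of 51 with a window had the tract. Of 11 kinases and mTOR pathway genes, 1 rose (RPS6KA2, a ribosomal S6 kinase, 0.45, adjusted p = 0.0104) and 0 fell, with a median of 0.12 and the tract in 0 of 17. FAU, whose product includes a small subunit protein, had 0.12 (adjusted p = 0.263). Over all these lists 9 genes rose, and 5 did without the intensity trend, where 4.73% of all probe sets rose. Without treated replicate 1, treated replicate 2 or mock replicate 3, the counts were 3, 5 and 5. In these fits 3.49%, 3.56% and 4.44% of all probe sets rose.

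At 6 h, with 1 array per group, there is no replicate check and no test. Of 55 members past that array's filter, 51 read higher on the treated array and 4 lower in the deposited signals (26 and 29 after quantile normalization), and the median log2 ratio was 0.66 against -0.032 over all 11108 probe sets kept. A ratio of 1.5-fold or more was reached by 34 members in the higher direction and by 0 in the lower, against 3.32% and 5.44% of all probe sets. RPL41 read 17488 in treated and 8786 in mock cells, a log2 ratio of 0.99. RPS18, a small subunit head protein, read 15075 in treated and 7580.0 in mock cells (0.99), and RPL37A 18074 in treated and 9226 in mock cells (0.97). RPS15 (0.94) and RPS14 (0.93) followed. Thus RPL41 and RPL37A, with the smallest 12 h differences, were among the highest ratios at 6 h.

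The 6 h ratios of bright genes moved with brightness among members and other genes alike. The mock array's signals ended at 10699 and the treated array's at 22762. Other probe sets at or above 4000 on either array, 765 in number, had a median log2 ratio of 0.39, and those below 4000 on both, 10261, had -0.058. The 50 members at or above 4000 had a median of 0.69. By mock signal, members from 6000 to 8000 had a median of 0.70 (n = 25) and other probe sets 0.60 (n = 183). At 8000 or more the medians were 0.76 (n = 19) and 0.85 (n = 72). From 4000 to 6000 they were 0.35 (n = 6) and 0.27 (n = 382). Spearman's rho of the members' ratio with their log2 mock signal was 0.55 over 55 members, as a description.

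After quantile normalization, which gives both arrays the same distribution of signals, the members' median was -0.022, with 26 above and 29 below 0. The counts past 1.5-fold were 0 in both directions, against 2.13% and 3.85% of all probe sets. RPL41 then had 0.11, RPS18 0.22 and RPL37A 0.018. The highest value was that of RPL27A (0.55), read by a dim probe set. RPS15 (0.33) and RPL32 (0.33) stayed among the higher values, and RPL30 (-0.31) and RPL36 (-0.29) were the lowest. Over all probe sets the median was then 0.020. The 6 h difference over the members therefore depended on the scaling and was near 0 after quantile normalization. Treatment and array cannot be told apart at this time.

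**Figure D4:**
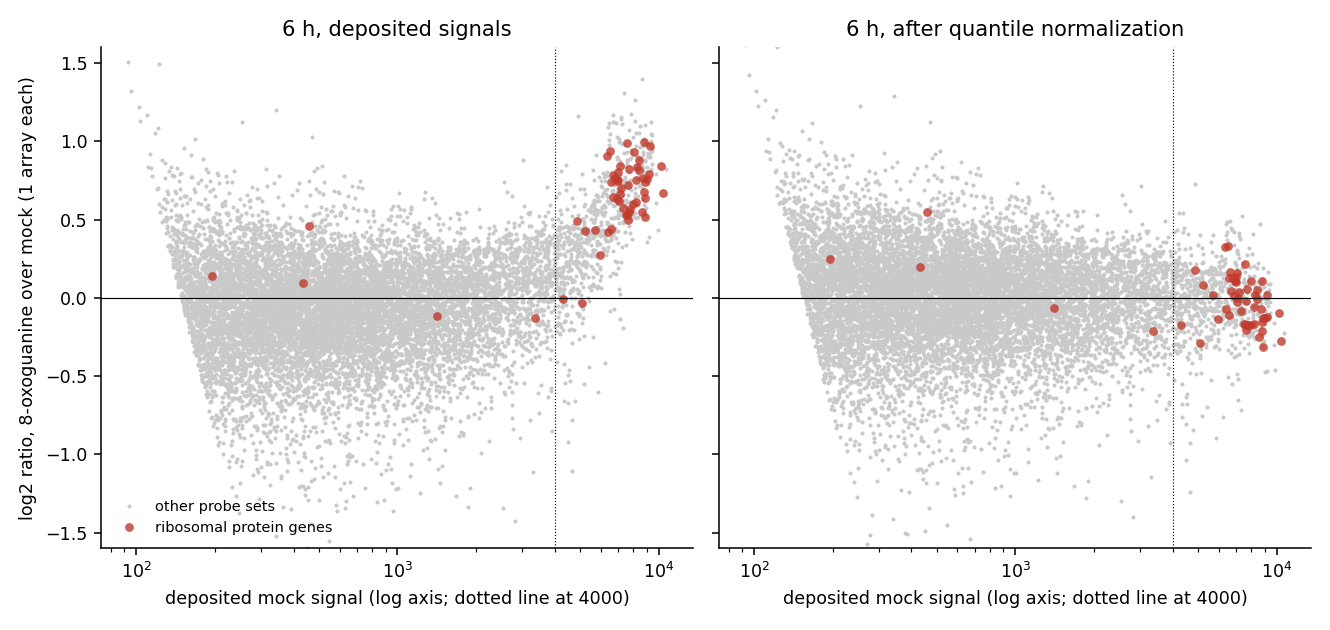
The 6 h log2 ratio (8-oxoguanine over mock, 1 array each) is plotted against the deposited mock signal on a log axis for 55 ribosomal protein genes (red) and the other probe sets past the filter (grey; some lie beyond the plotted range), before (left) and after (right) quantile normalization. Both rise together to the right of the dotted line at a signal of 4000 in the left panel, and the members' median moves from 0.66 to -0.022 between panels.

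Members read as dim by the probe set used were few. Of the kept members 5 were below 4000 on both arrays, with a median ratio of 0.094. RPL27A, a large subunit protein, read 629.6 in treated and 458 in mock cells (0.46). RPLP2, a stalk protein like RPLP1, read 215 in treated and 195 in mock cells (0.14), and RPL39L, a paralogue of RPL39 found in testis, 463 in treated and 434 in mock cells (0.094). These 3 were slightly higher on the treated array, and none reached 1.5-fold. RPL27A and RPLP2 were also named by probe sets with several symbols, which were left out, so these low signals cannot be taken as the genes' levels. RPL36AL (-0.13) and RPL26L1 (-0.12) were lower. RPS27L (-0.007) and RPL36 (-0.035), with mock signals between 4000 and 6000, were also at or below 0. In the deposited signals 1 of the 4 paralogues kept was above 0, and 50 of 51 canonical members were. The mock signals of these paralogues ran from 434 to 4305. Other probe sets had a median ratio of -0.068 below a mock signal of 1000 and -0.057 from 1000 to 2000. Their median was 0.060 from 2000 to 4000 and 0.27 from 4000 to 6000. Paralogue and brightness therefore cannot be told apart here. After quantile normalization 26 of all members kept were above 0 and 29 below. RPL3L and the testis form RPL10L were below the filter.

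Probe sets of one gene did not always give the same direction at 6 h. Of 18 members with over 1 probe set past the filter, 6 had ratios of both signs, namely RPL18, RPL22, RPL31, RPL37A, RPS9 and RPS10. For RPS9 the brightest gave 0.42 and another, at a mock signal of 4559, gave -0.99. For RPS10, the ratio was 0.84 from the brightest and -0.57 from one at a mock signal of 644. The 11 member probe sets other than the brightest that were below 4000 on both arrays had a median ratio of -0.080, with 4 above and 7 below 0. Of the 58 members, 52 have RefSeq pseudogenes that carry their name, up to 95 for RPL23A and 64 for RPL31, and hybridisation to their transcripts cannot be told apart from that to the gene. Probe sets of the types marked s or x by the manufacturer, which can match several transcripts, numbered 29 and 7 of the 50 at 12 h, and 30 and 12 of the 57 at 6 h.

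The same probe set passed the filter at both times for 49 members. Of these, 44 were above 0 at both times and 5 were above 0 at 12 h and below 0 at 6 h, namely RPL26L1, RPL31, RPL36, RPL36AL and RPS27L. These counts turned on the 6 h scaling, being 22 and 27 after quantile normalization and 46 and 3 after median centring of the 6 h arrays. Over the 49 genes Pearson's r between the 6 h ratio and the 12 h change was -0.49 and Spearman's rho -0.45, and after quantile normalization at 6 h they were -0.21 and -0.23. The times have their own mock arrays but differ in array type and in the range of bright signals, and these coefficients are given as a description. The RPL31 probe set called at 12 h read 379 on the treated and 430.1 on the mock array at 6 h, a log2 ratio of -0.18. The brightest RPL31 probe set at 6 h, another one, read 12491 and 8166, a ratio of 0.61 (-0.17 after quantile normalization). RPS25 (0.28 at 6 h), RPS9 (0.42), RPL10A (0.42), RPL14 (0.49) and RPL37 (0.53) had 6 h ratios below the members' median, and RPS27 (0.76) and RPL34 (0.74) above it. The difference between times was not tested.

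**Figure D5:**
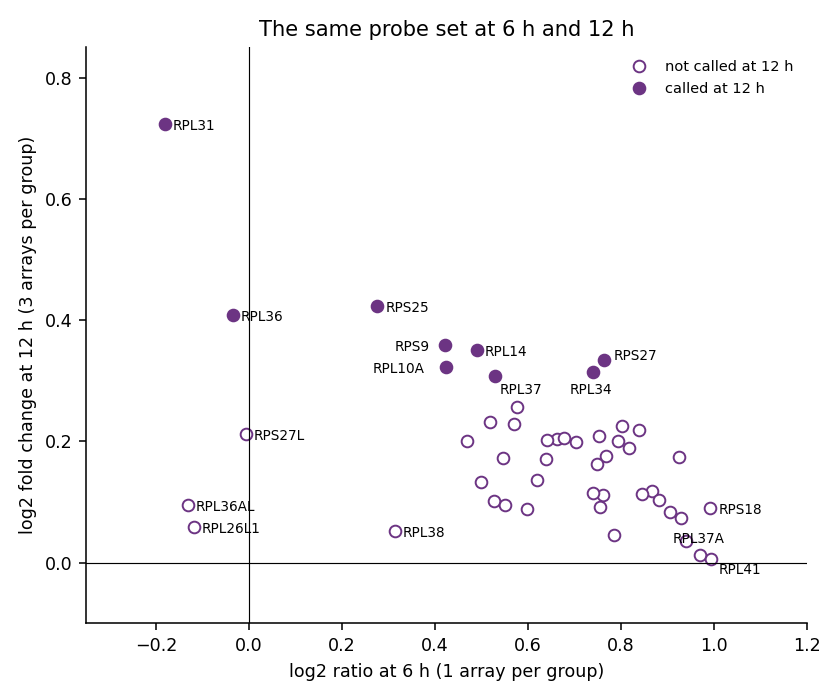
Each point is 1 of 49 ribosomal protein genes read by the same probe set at both times, with the 6 h log2 ratio (1 array per group) on the x axis and the 12 h log2 fold change (3 arrays per group) on the y axis; filled points were called at 12 h. Of the called genes, RPS27 and RPL34 lie above the members' median 6 h ratio and the rest below it, with RPL31 and RPL36 left of 0, and RPL41 and RPL37A lie at the lower right.

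The cells' labels were checked against marker genes. Of 12 fibroblast markers on the 12 h arrays, all passed the filter, with summed signals of 87172 to 103180 in mock and 85091 to 99887 in treated cells. LUM (1.07, adjusted p = 0.0034 by limma) and PDGFRB (0.30, adjusted p = 0.0446) rose on the log2 scale, and S100A4 changed by -0.58 (adjusted p = 0.00302). Of the markers of other cell types, 4 of 8 epithelial, 1 of 6 endothelial and 2 of 4 blood cell genes passed. These were KRT8, KRT18, KRT19 and SFTPC, then PECAM1, and CD3E and HBB. HBB, a globin gene, is not a leukocyte marker, and its means were 221 in mock and 214 in treated cells. The summed signals of the lists were at most 4602, 292 and 419.9. KRT18, with means of 3639 in mock and 3943 in treated cells, made up most of the epithelial sum. EPCAM, CDH1, CDH5 and PTPRC were among the markers that did not pass. The epithelial keratin KRT19 changed by -1.27 (adjusted p = 0.00145 by limma), and the part of these markers in the members' values was not tested. At 6 h, 14 of 14 fibroblast markers passed and their sum was 83415 on the mock and 147053 on the treated array, so that bright fibroblast markers moved with the ribosomal protein genes there. In bulk RNA, a change in the share of cells and a change in RNA per cell cannot be told apart. Precision is limited throughout by how few arrays there were.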

How the data were processed

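Per the labels, biotin-labelled cRNA of total RNA was hybridised to Affymetrix arrays, with fewer probe sets at 12 h than at 6 h. The authors deposited linear intensity values, 1 for each probe set of each array. MAS5 is the tool in the submitters' processing notes, and its version is not given in the sources used here. Array means without extremes lay near 500.5 at 12 h and 500.1 at 6 h, so changes are relative to the whole array.

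Log2 intensities were not rescaled. Probe sets below the 40th percentile of mean log2 at 12 h (signal 93.9) and the 50th at 6 h (signal 148) were left out. The 12 h test was limma 3.58.1 under R 4.3.3 (eBayes with an intensity trend, two-sided, Benjamini-Hochberg), tested on simulated data. Symbols came from the platform annotation. Of 87 RefSeq genes meeting the naming rule, 29 had no single-symbol probe set. Members and lists were chosen with earlier results of these data known. Named genes are the called members, the 5 highest and 5 lowest and the 3 brightest and 3 dimmest at each time, members of known roles, and up to 3 per direction of other lists. Others were named after their values were seen. Alternatives covered scaling, filters, a constant, the variance trend, a replicate block, averaged probe sets and arrays left out.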

Additional observations from a re-analysis of the deposited data

Results flagged for a closer look

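For 4 ribosomal protein genes the same probe set had all 3 treated arrays above all 3 mock arrays at 12 h, whereas the single treated array lay below its mock at 6 h. RPL31 had a log2 ratio of -0.18 at 6 h against a 12 h change of 0.72, while its brightest 6 h probe set, a different one, gave 0.61. RPL26L1 had -0.12 at 6 h against 0.058, RPL36 had -0.035 against 0.41, and RPS27L had -0.0070 against 0.21. With the 6 h arrays centred on their medians, RPL36 had 0.080 and RPS27L 0.11, so these turned, RPL26L1 had -0.0033 and RPL31 -0.067. After quantile normalization all 4 stayed below 0. No test compared the 2 times, and at 6 h there is 1 array per group. No group held 4 or more arrays, so single arrays were not screened for outlying values.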

How the results depend on the processing

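The members' 12 h median stayed above 0 in all settings run, between 0.085 (quantile normalization) and 0.20 (without treated replicate 2). Of members, 9 were called (6.59% of all probe sets rose), 5 with no filter (3.12%), 3 without the intensity trend (4.73%), 3 to 8 with 1 array left out (3.49% to 6.21%), and 19 (7.93%) without treated replicate 3 and mock replicate 2 together, a setting added after the data were seen. Calls in the other translation lists, 9, became 5 without the trend and 3 to 9 with 1 array left out. Same-numbered treated and mock arrays deviated with correlations of 0.0757, -0.149 and -0.0503. These do not show pairing by number, and with 3 arrays per group they cannot exclude it. With the replicate block 5 members (4.78% of all probe sets) and 6 genes of the other lists passed.

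Small 12 h differences changed sign. Under median centring RPL37A had -0.0027 and RPL41 -0.0095. Under quantile normalization RPL35 had -6.44e-04, RPL37A -0.023, RPL39 -0.018, RPL41 -0.033 and RPS15 -0.019. Members not listed here were also not above 0 in that setting. With 1 array left out, RPL37A ranged from -0.087 to 0.095, RPL38 from -3.52e-04 to 0.087, RPL41 from -0.11 to 0.091, RPS15 from -0.065 to 0.12 and RPS4X from -0.010 to 0.19. Without both arrays named above, RPL37A had -0.12 and RPL41 -0.024. The cause was not tested.

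At 6 h the median ratio of 0.66 became 0.78 with median centring (which moves all ratios by 0.12), -0.022 with quantile normalization, 0.65 with no filter, 0.67 with a stricter one, 0.66 with a constant added, 0.64 with the mean of probe sets and 0.094 for the 5 members below 4000. The count past 1.5-fold, 34, was 0 under quantile normalization and 0 below 4000. Under quantile normalization RPL3 had -0.022, RPL39 -0.060, RPS10 -0.097, RPS3 -0.13 and RPS6 -0.27, each from its brightest probe set. For RPS6, the probe set used at 12 h gave 0.11 and another bright one -0.049, so its sign depended on the probe set.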
